A study of Mus musculus with 12 samples.

Results

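Expression of 10 genes of the circadian clock, out of the 21556 genes in the count table, was followed through 4 groups of mouse skin fibroblasts. They are the PAR bZIP factors Dbp, Tef and Hlf, the Period genes Per1, Per2 and Per3, the nuclear receptors Nr1d1 and Nr1d2, the activator Arntl and the repressor Ciart. The 10 were chosen by name, as members of one pathway, and with their measured levels and fold changes in these 4 groups known, so all comparisons count as used and the values of the 10 are given as a description, without p-values. Where a member is said to be called or to pass a limit, this sets its value beside the limits used for all genes and is no independent test of it. The cells were primary fibroblasts from abdominal skin of WT mice (strain C57BL/6) and of Nox4 KO mice (strain B6.129-Nox4tm1Kkr/J, a germline disruption of the gene for NADPH oxidase 4). They were starved for 24 h, and then either left without cytokine (control) or given TGF-β2 (10 ng/ml) for another 24 h, a treatment used to turn fibroblasts into myofibroblasts. RNA was sequenced from 3 libraries per group, 12 in all, and every group shared the starvation step and a single harvest time. Whether the 3 replicates came from separate mice, the age and sex of the donors of these cultures, and the hour of harvest relative to any synchronizing step are not given in the sources used here, so the spread between replicates may be technical, and a p-value measures only that spread.

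The clock of mammalian cells is a feedback loop of transcription factors. ARNTL (also called BMAL1) pairs with CLOCK, binds E-box sequences and activates the Period and Cryptochrome genes, whose proteins return to the nucleus and block that pair. NR1D1 and NR1D2 (REV-ERB α and β) repress Arntl and compete there with the ROR receptors. DBP, TEF and HLF are output factors that activate genes through D-box sequences, where the repressor NFIL3 competes with them. Fibroblasts run this loop cell by cell, and in culture the cells drift apart unless a serum change, a hormone or a growth factor sets them to the same phase.

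Promoter sequence was available from RefSeq (GRCm38.p6) for 9 of the 10 genes, as windows of 300 bases around a gene's start, and not for Per2. The stretches of 120 bases shown here belong to Dbp and Per1, which had the largest differences after TGF-β2 among the members tested, Dbp in Nox4 KO and Per1 in WT, to Per3, which holds a pair of D-boxes, and to Tef, a PAR bZIP gene like Dbp whose groups all overlapped. Each is written 5′ to 3′ on the strand of its gene, and capitals mark the motif found. Tef, Per1 and Arntl had more than a single window. The stretches of Dbp, Tef and Per1 lie within the annotated spans of these genes, as the windows follow the starts of single transcripts. The stretch of Dbp is chr7:45705127-45705246 (plus strand), that of Tef chr15:81802490-81802609 (plus strand), that of Per1 chr11:69098727-69098846 (plus strand) and that of Per3 chr4:151044796-151044915 (minus strand).
Dbp: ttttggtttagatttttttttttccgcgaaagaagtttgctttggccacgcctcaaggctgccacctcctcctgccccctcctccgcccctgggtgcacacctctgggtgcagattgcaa
Tef: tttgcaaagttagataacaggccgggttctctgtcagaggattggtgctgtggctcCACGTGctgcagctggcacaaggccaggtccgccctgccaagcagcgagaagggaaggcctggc
Per1: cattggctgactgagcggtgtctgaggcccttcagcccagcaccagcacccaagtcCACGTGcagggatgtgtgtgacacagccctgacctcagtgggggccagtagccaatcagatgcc
Per3: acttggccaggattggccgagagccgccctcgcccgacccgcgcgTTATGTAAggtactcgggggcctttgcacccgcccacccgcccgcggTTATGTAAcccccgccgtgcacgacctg

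The 5 motifs were searched on both strands of these windows, and none overlapped another in the 10 genes. The E-box CACGTG, read by ARNTL and CLOCK, stood in windows of Tef, Per1 and Ciart and in 7.15% of all 32851 windows. The related letters CACGTT stood in the window of Nr1d1 and in 4.68% of all windows. The D-box, searched as TTATGTAA or TTACGTAA, stood in the window of Per3, where it occurred 2 times, and in 1.06% of all windows. The ROR element TAGGTCA stood 30 bases after the start in a window of Arntl and in 2.61% of all windows, and the cyclic AMP response element TGACGTCA stood in the window of Hlf and in 1.79%. The windows of Dbp and Nr1d2 held none of the 5, nor did another window each of Per1 and Arntl. A match or its absence is a description of these letters in this window only. Tef and Per1 both held the E-box, and the levels of Tef overlapped between control and TGF-β2 whereas those of Per1 did not.

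The libraries held between 35118344 and 43796260 counted reads, and the 3 stimulated Nox4 KO libraries were the deepest, at 42165658 or more. Nox4 itself had 203 to 398 reads in WT control and 1314 to 2471 after TGF-β2, against 102 to 207 and 782 to 1175 in Nox4 KO. Reads on Nox4 were thus fewer in Nox4 KO but present, the third Nox4 KO control library overlapped WT control, and a count per gene does not tell the exons apart. As group means, all 7 fibroblast markers were above 1 RPKM (reads per exon length and library depth), and none of the keratinocyte, melanocyte and Schwann cell or adipocyte markers reached that level. Kdr was the only endothelial marker and Des the only skeletal muscle marker to reach it. The 6 markers of macrophages, mostly Lyz2, summed to 23.9 to 108 RPKM in WT control, 19.6 to 73.7 in WT with TGF-β2, 18.9 to 83.0 in Nox4 KO control and 12.4 to 59.7 in Nox4 KO with TGF-β2. As each library is bulk RNA, fewer cells that express a gene and less RNA of it per cell cannot be told apart.

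The 10 genes spanned a wide range of levels. In WT control, Nr1d1 was the highest at 25.5 ± 0.906 RPKM (SD, n = 3), followed by Tef at 15.8 ± 2.06 RPKM. Arntl at 10.2 ± 1.27 RPKM and Nr1d2 at 10.1 ± 0.906 RPKM overlapped and cannot be ordered. Below them came Per1 at 7.83 ± 0.312, Dbp at 5.43 ± 0.334, Per3 at 3.91 ± 0.927, Per2 at 2.55 ± 0.476 and Ciart at 1.64 ± 0.283 RPKM, whose libraries did not overlap with those of the next gene in that order. Hlf was the lowest at 0.188 ± 0.0667 RPKM.

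**Figure D1:**
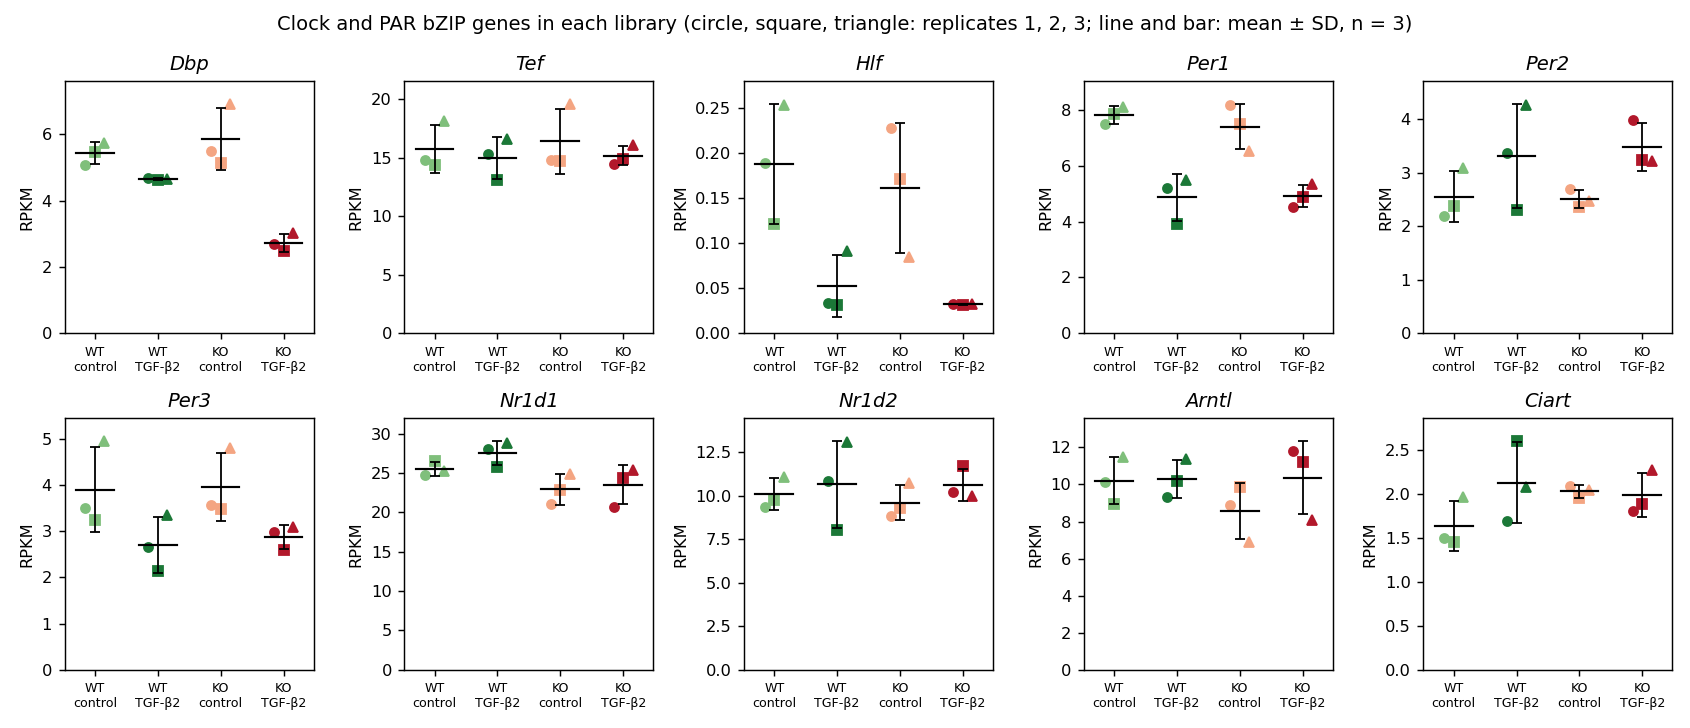
The level of each of the 10 genes in RPKM (vertical axis, from 0) in the 12 libraries of the 4 groups, with replicates 1, 2 and 3 as circles, squares and triangles and the mean ± SD (n = 3) in black. Dbp stands at 2.49 to 3.01 RPKM in stimulated Nox4 KO and at 4.63 to 6.92 RPKM in the other groups, and Per1 is lower in both stimulated groups than in both control groups.

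Dbp, a PAR bZIP activator with one of the strongest daily rhythms known in liver and fibroblasts, had in Nox4 KO the largest difference with TGF-β2 among the members that passed the limit of 1 RPKM, while in WT Per1, Per3, Per2 and Ciart differed by more. Its level in WT control was 5.08, 5.45 and 5.75 RPKM in replicates 1, 2 and 3, and in WT with TGF-β2 it was 4.69, 4.63 and 4.65 RPKM. In Nox4 KO control it was 5.50, 5.14 and 6.92 RPKM, and in Nox4 KO with TGF-β2 it was 2.68, 2.49 and 3.01 RPKM. The stimulated libraries lay below the control libraries in both genotypes without overlap, at 88.2% of control in WT and 49.5% of control in Nox4 KO. The stimulated Nox4 KO libraries also lay below all 9 other libraries. These levels rest on 200 to 233 reads per library in stimulated Nox4 KO and on 318 to 462 in the others.

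The log2 fold change of Dbp with TGF-β2 was -0.18 (standard error 0.11) in WT and -1.02 (standard error 0.14) in Nox4 KO. A gene was called when edgeR's quasi-likelihood test gave a Benjamini-Hochberg adjusted p under 0.05 and the fold change was at least 2, and Dbp was called in Nox4 KO and not in WT. Its value in Nox4 KO stood at the fold limit. It was -0.89 without the third Nox4 KO control library, which had the highest Dbp level of all, and -0.96 without the second stimulated library, and then it missed the limit while its adjusted p stayed under 0.05. With scaling by library size alone, which moved the median of all genes by -0.0872, the value was -1.10. It was -0.99 with edgeR's filterByExpr, -0.99 with no filter and -0.98 with all 12 libraries in the fit. In these 3 settings it missed the fold limit. Against WT, Dbp in Nox4 KO had a log2 fold change of 0.07 (standard error 0.12) in control and of -0.75 (standard error 0.14) after TGF-β2. The difference of the TGF-β2 effects between genotypes was -0.82 (standard error 0.18) on the log2 scale, and it was not called by edgeR over all genes, whereas DESeq2 called 6 genes, Dbp among them. With the replicate numbers as a block, Dbp in Nox4 KO was at -1.01 (standard error 0.09) with TGF-β2. The difference between genotypes was then -0.82 (standard error 0.13), and edgeR did not call it.

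Dbp (ENSMUSG00000059824) spans 45705088 to 45710203 of chromosome 7 in GRCm38, plus strand. Of its 1837 merged exon bases, 539 are shared with exons of Sphk2, a sphingosine kinase gene on the opposite strand, and whether the counting used strand is not stated, so reads there cannot be assigned to 1 of the genes. Sphk2 had a log2 fold change with TGF-β2 of -0.16 (standard error 0.10) in WT and -0.33 (standard error 0.07) in Nox4 KO, the same direction as Dbp and a smaller size. Dbp is also on the chromosome of Nox4, 41.54 Mb away, and Arntl is 25.81 Mb away. By its name the knockout strain has its allele from a 129 donor, so sequence linked to Nox4 can differ between the genotypes, and its part cannot be told apart from that of the allele.

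Tef, the PAR bZIP factor first described in the thyrotroph cells of the pituitary, had 14.8, 14.3 and 18.1 RPKM in WT control and 15.3, 13.1 and 16.6 RPKM after TGF-β2. Nox4 KO fibroblasts had 14.8, 14.8 and 19.6 RPKM in control and 14.5, 14.9 and 16.1 RPKM after TGF-β2. All 4 groups overlapped. With TGF-β2 the log2 fold change of Tef was -0.03 in WT (standard error 0.13) and -0.03 in Nox4 KO (standard error 0.11), and the replicates of 1 group differed by more than the group means. Tef overlaps Gm17597, an antisense RNA gene, by 193 of its 4944 exon bases.

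Hlf, the remaining PAR bZIP gene, is abundant in liver and brain and was close to the detection limit here. It had 39, 27 and 60 reads in WT control and 8, 7 and 20 after TGF-β2. Nox4 KO fibroblasts had 51, 42 and 18 reads in control and 8 in each of the 3 stimulated libraries. All stimulated libraries lay below all control libraries of their genotype. With at most 0.254 RPKM in any library, Hlf did not reach the limit of 1 RPKM in any comparison and was the only member of the 10 not tested. When genes were kept by edgeR's filterByExpr, which asks for reads and not for RPKM, its log2 fold change with TGF-β2 was -1.77 (standard error 0.49) in WT and -2.22 (standard error 0.44) in Nox4 KO. It was kept by that filter through its control libraries alone, where it was higher, so no call is drawn from these values.

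The Period genes encode the repressors that accumulate late in the cycle and are also induced at once by hormones and serum. Per1 (ENSMUSG00000020893) spans 69095217 to 69109960 of chromosome 11 in GRCm38, plus strand, and had 7.49, 7.88 and 8.11 RPKM in WT control and 5.22, 3.91 and 5.50 RPKM after TGF-β2. The values in Nox4 KO were 8.18, 7.51 and 6.56 RPKM in control and 4.54, 4.90 and 5.34 RPKM after TGF-β2. Every stimulated library was below every control library, in each genotype and across them. For Per1 the log2 fold change was -0.64 (standard error 0.15) in WT, or 64.2% of control, and -0.50 (standard error 0.11) in Nox4 KO, or 70.5% of control. In both genotypes it passed the adjusted p limit and missed the fold limit of 2, and in each genotype it no longer passed when any of 4 of the 6 libraries was left out, with log2 fold changes from -0.73 to -0.49 in WT and -0.60 to -0.42 in Nox4 KO. The difference between genotypes in that effect was 0.15 (standard error 0.20) on the log2 scale.

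Per2 (ENSMUSG00000055866) spans 91415982 to 91459324 of chromosome 1, minus strand, and had 2.19, 2.37 and 3.09 RPKM in WT control and 3.36, 2.31 and 4.26 RPKM after TGF-β2. In Nox4 KO it had 2.69, 2.36 and 2.47 RPKM in control and 3.99, 3.24 and 3.22 RPKM after TGF-β2. Its direction was opposite to that of Per1. The Nox4 KO groups did not overlap, and their log2 fold change of 0.56 (standard error 0.12) passed the adjusted p limit below the fold limit, but not without the second control or the second stimulated Nox4 KO library, nor with all 12 libraries in the fit. The WT groups overlapped, as the second stimulated WT library was as low as the controls, and the log2 fold change of 0.42 (standard error 0.24) did not pass. It was 0.20 without the third and 0.63 without the second stimulated WT library. With single WT libraries left out, its lowest adjusted p was under the limit. The difference between genotypes was 0.15 (standard error 0.30) on the log2 scale, so the effect in WT was within its error of that in Nox4 KO.

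Per3, whose protein is the least needed of the 3 for rhythm itself, had 3.51, 3.24 and 4.97 RPKM in WT control and 2.65, 2.13 and 3.35 RPKM after TGF-β2. The values in Nox4 KO were 3.58, 3.48 and 4.80 RPKM in control and 2.98, 2.59 and 3.08 RPKM after TGF-β2. The third replicate was the highest of its group in all 4 groups, and the group means were lower with TGF-β2 in both genotypes. For Per3 the log2 fold change was -0.48 (standard error 0.22) in WT, where the groups overlapped, and -0.37 (standard error 0.14) in Nox4 KO, where they did not. Neither passed the test unless the replicate numbers were fitted as a block, under which both passed below the fold limit. The WT libraries were not taken as pairs, so the pass of Per3 in WT is a description only.

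For the nuclear receptors, libraries with and without TGF-β2 overlapped in both genotypes. Nr1d1, a haem-binding repressor, had 24.7, 26.5 and 25.2 RPKM in WT control and 28.0, 25.8 and 28.8 RPKM after TGF-β2. In Nox4 KO it had 21.0, 22.8 and 24.9 RPKM in control and 20.7, 24.4 and 25.4 RPKM after TGF-β2. Its log2 fold change with TGF-β2 was 0.15 (standard error 0.09) in WT and 0.12 (standard error 0.10) in Nox4 KO. The Nox4 KO libraries tended to the lower values, with a log2 fold change against WT of -0.19 (standard error 0.07) in control and -0.21 (standard error 0.11) after TGF-β2, and neither was called. Over all 12 libraries Nr1d1 varied by 1.39-fold, the least of the 10.

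Nr1d1 shares 263 of its 2721 exon bases with Thra, the thyroid hormone receptor α gene, on the opposite strand. Thra was lowered by TGF-β2, with a log2 fold change of -1.30 ± 0.09 in WT (± standard error; edgeR, adjusted p = 0.000523) and -1.28 ± 0.15 in Nox4 KO (adjusted p = 0.00426). Reads in the shared part cannot be assigned without strand, and their part in the level of Nr1d1 was not tested.

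Nr1d2, the second receptor of this kind, had 9.37, 9.78 and 11.1 RPKM in WT control and 10.8, 8.04 and 13.1 RPKM after TGF-β2. Nox4 KO fibroblasts had 8.81, 9.28 and 10.7 RPKM in control and 10.2, 11.7 and 9.96 RPKM after TGF-β2. The groups overlapped throughout, and the log2 fold change was 0.12 (standard error 0.18) in WT and 0.23 (standard error 0.10) in Nox4 KO.

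Arntl, the target that NR1D1 and NR1D2 repress and the only single clock gene whose loss stops the behavioural rhythm of the whole animal, had 10.1, 8.95 and 11.5 RPKM in WT control and 9.34, 10.2 and 11.4 RPKM after TGF-β2. Levels in Nox4 KO were 8.88, 9.87 and 6.90 RPKM in control and 11.8, 11.2 and 8.10 RPKM after TGF-β2. The third replicate was the lowest in both Nox4 KO groups and the highest in both WT groups. Its log2 fold change with TGF-β2 was 0.06 (standard error 0.12) in WT and 0.36 (standard error 0.20) in Nox4 KO, and neither passed the test, whereas with the replicate block the value in Nox4 KO passed below the fold limit.

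Ciart (also called CHRONO), a repressor of the ARNTL and CLOCK pair, had 1.50, 1.45 and 1.96 RPKM in WT control and 1.69, 2.60 and 2.08 RPKM after TGF-β2. Levels in Nox4 KO were 2.09, 1.95 and 2.04 RPKM in control and 1.80, 1.88 and 2.27 RPKM after TGF-β2. Its log2 fold change with TGF-β2 was 0.41 (standard error 0.20) in WT and 0.05 (standard error 0.14) in Nox4 KO. The groups overlapped in both genotypes. With 119 to 222 reads per library, Ciart was among the members with the fewest reads.

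Counted over the 9 members tested, 0 were called in WT with TGF-β2, where 7.72% of 10743 genes tested were called, and 1, Dbp, was called in Nox4 KO, lower, where 4.58% of 10809 genes tested were called lower and 6.8% in all. At an adjusted p under 0.05 and any fold change, 1 member was lower in WT, where 12.2% of all genes were lower. In Nox4 KO 1 member was higher and 2 were lower, where 15.1% of all genes were higher and 14.9% lower. By edgeR's unadjusted p under 0.05, 1 member of 9 passed in WT, where 37.7% of all genes did, and 4 passed in Nox4 KO, where 43.8% did. Libraries with and without TGF-β2 did not overlap for 2 members in WT, both lower, where 24.9% of all genes were lower in this way and 20.3% higher. In Nox4 KO 3 members were lower without overlap, where 31.5% of all genes were so, and 1 was higher, where 17.0% were. The median log2 fold change of the 9 was 0.06 in WT and 0.05 in Nox4 KO, against medians over all genes of -0.0027 and -0.0144. Since the members were chosen with these values known, nothing is read from the counts.

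**Figure D2:**
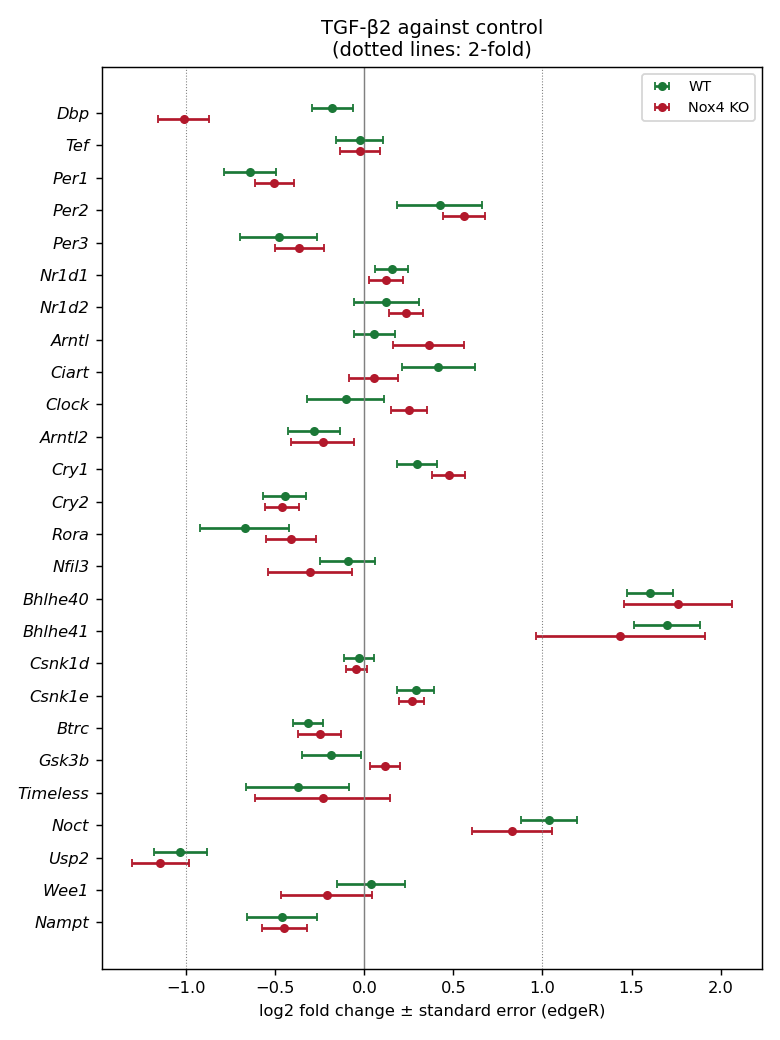
The log2 fold change with TGF-β2 against control (horizontal axis, dotted lines at a 2-fold change) of the 9 members tested, listed first, and of 17 other clock genes, in WT (green) and Nox4 KO (red), with the standard error from edgeR as bars. Dbp is at -0.18 in WT and -1.02 in Nox4 KO, while Bhlhe40 is at 1.60 and 1.76 and Usp2 at -1.03 and -1.15.

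A further 20 clock genes were grouped by their known role. They too were listed with earlier results of these data known, so their counts are set beside those of all genes as a description, and nothing is read from the counts. The adjusted p of single genes below likewise place them among all genes and are no independent tests. Of these, 17 passed the limit of 1 RPKM in the TGF-β2 comparisons and were tested with edgeR over all genes, and Npas2, Rorb and Fbxl21 did not. In WT, 3 were called higher (Bhlhe40, Bhlhe41 and Noct) and 1 lower (Usp2), where 2.62% of all genes tested were called higher and 5.09% lower. Bhlhe41 reached the limit of 1 RPKM only through its stimulated libraries, so its call is not read as a result. In Nox4 KO, 1 was called higher (Bhlhe40) and 1 lower (Usp2), where 2.22% of all genes were called higher and 4.58% lower. At any fold change 3 were higher and 3 lower in WT, where 10.4% and 12.2% of all genes were, and 4 were higher and 3 lower in Nox4 KO, where 15.1% and 14.9% were. The median log2 fold change of the 17 was -0.11 in WT and -0.21 in Nox4 KO.

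Bhlhe40 and Bhlhe41 (DEC1 and DEC2) are E-box repressors that compete with ARNTL and CLOCK, and Bhlhe40 is a known early target of TGF-β. Bhlhe40 had 22.7, 17.8 and 21.5 RPKM in WT control and 63.5, 55.1 and 64.6 RPKM after TGF-β2. Levels in Nox4 KO were 21.8, 22.7 and 14.2 RPKM in control and 76.1, 71.6 and 40.4 RPKM after TGF-β2. The stimulated libraries were all above the control libraries, and the third Nox4 KO library was the lowest of its group both without and with TGF-β2. On the log2 scale Bhlhe40 rose by 1.60 ± 0.13 in WT (± standard error, here and for the genes that follow; edgeR, adjusted p = 0.00077) and by 1.76 ± 0.30 in Nox4 KO (adjusted p = 0.0108).

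Bhlhe41 had 0.609, 0.754 and 0.883 RPKM in WT control and 2.53, 1.99 and 2.56 RPKM after TGF-β2, and rose by 1.70 ± 0.18 on the log2 scale (edgeR, adjusted p = 0.00183). Its control means of 0.749 RPKM in WT and 0.959 RPKM in Nox4 KO were under the limit of 1 RPKM, so it was tested only because its stimulated groups were above it. Nothing is read from its calls for that reason. In Nox4 KO it had 0.555, 0.631 and 1.69 RPKM in control and 3.35, 2.09 and 1.83 RPKM after TGF-β2. The third Nox4 KO control library was far above the other 2, and the log2 fold change was 1.44 (standard error 0.47). Without that library it was 2.11. With the replicate numbers as a block, in which the Nox4 KO libraries deviated in pairs, it was 1.51. Whether Bhlhe41 was called there depended on the setting.

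Of the Cryptochromes, the partners of the Period proteins, Cry1 was higher in Nox4 KO and Cry2 lower in both genotypes. Cry1 had 3.95, 3.98 and 4.63 RPKM in WT control and 4.49, 5.43 and 5.07 RPKM after TGF-β2, and 3.37, 3.75 and 3.97 against 5.06, 4.81 and 4.62 RPKM in Nox4 KO. It rose in Nox4 KO by 0.47 ± 0.09 on the log2 scale (edgeR, adjusted p = 0.0157), and in WT its value was 0.29 ± 0.11 (adjusted p = 0.105, or 0.0422 with all 12 libraries in the fit). Cry2 had 10.1, 9.81 and 11.9 RPKM in WT control and 7.05, 6.97 and 8.63 RPKM after TGF-β2, and 11.1, 12.5 and 11.8 against 7.10, 8.36 and 8.70 RPKM in Nox4 KO. It fell in both genotypes, by 0.45 ± 0.12 in WT (adjusted p = 0.0376) and by 0.46 ± 0.10 in Nox4 KO (adjusted p = 0.0173) on the log2 scale. None of these reached 2-fold. Cry1 lost its pass when any of 4 of the 6 Nox4 KO libraries was left out, Cry2 with 4 of 6 in WT and with 2 of 6 in Nox4 KO. In WT Cry2 also lost it with no filter on low values.

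**Figure D3:**
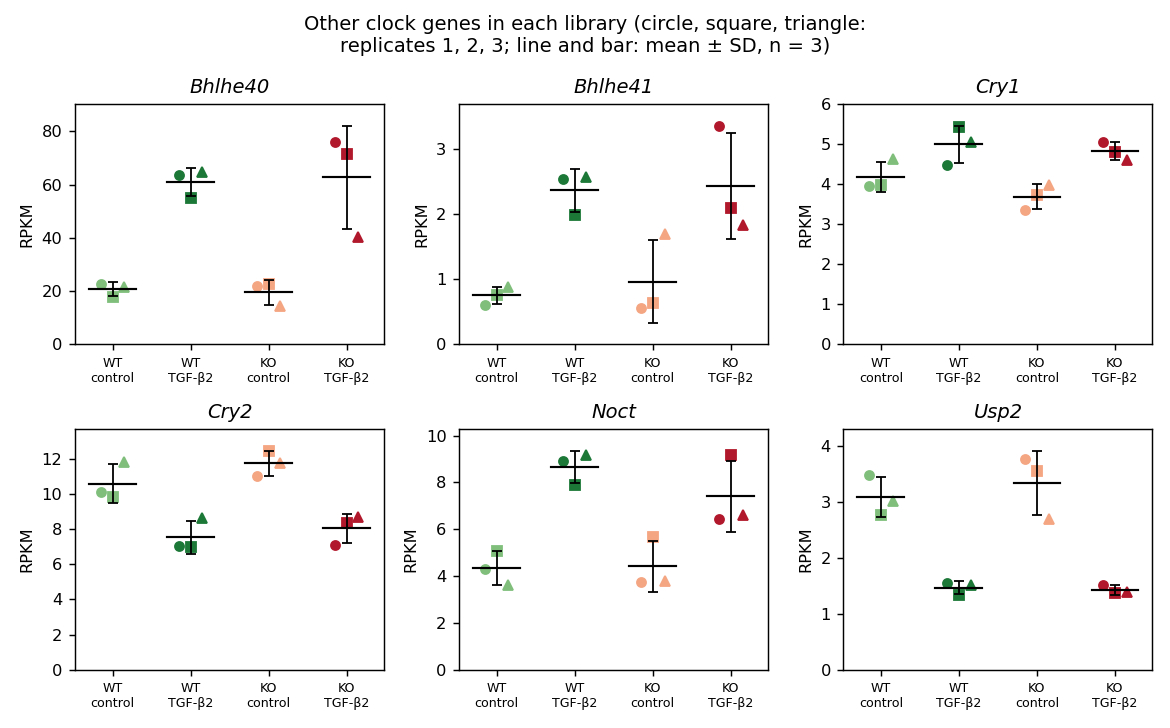
The level in RPKM (vertical axis, from 0) of Bhlhe40, Bhlhe41, Cry1, Cry2, Noct and Usp2 in the 12 libraries, with replicates 1, 2 and 3 as circles, squares and triangles and the mean ± SD (n = 3) in black. Bhlhe40 rises from 14.2 to 22.7 RPKM in control to 40.4 to 76.1 RPKM with TGF-β2, and the third Nox4 KO control library stands apart in Bhlhe41 at 1.69 RPKM.

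Usp2, a deubiquitinase that acts on clock proteins and follows the rhythm in most tissues, had 3.48, 2.77 and 3.02 RPKM in WT control and 1.55, 1.33 and 1.51 RPKM after TGF-β2. Nox4 KO fibroblasts had 3.77, 3.56 and 2.69 RPKM in control and 1.52, 1.37 and 1.39 RPKM after TGF-β2. It fell to 48.8% of control in WT (log2 -1.03 ± 0.15; edgeR, adjusted p = 0.00496) and to 45.2% in Nox4 KO (-1.15 ± 0.16, adjusted p = 0.00609). Noct, which encodes the rhythmic phosphatase Nocturnin, had 4.31, 5.07 and 3.61 RPKM in WT control and 8.93, 7.87 and 9.16 RPKM after TGF-β2. In Nox4 KO it had 3.76, 5.68 and 3.80 RPKM in control and 6.45, 9.15 and 6.60 RPKM after TGF-β2. Noct rose by 1.04 ± 0.16 in WT (edgeR, adjusted p = 0.00564) and by 0.83 ± 0.22 in Nox4 KO (adjusted p = 0.037) on the log2 scale, the latter under the fold limit and lost when any of 4 of the 6 libraries was left out. In WT both genes stood at the fold limit. Single libraries left out took Noct down to 0.93 and Usp2 up to -0.93, where the calls were lost.

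The other genes of the list differed less. Btrc, a subunit of the ligase that marks Period proteins, fell in WT by 0.32 ± 0.08 on the log2 scale (edgeR, adjusted p = 0.0377), with -0.25 in Nox4 KO (adjusted p = 0.166). Csnk1e, a kinase of the Period proteins, rose in Nox4 KO by 0.27 ± 0.07 (adjusted p = 0.0343), with 0.29 in WT (adjusted p = 0.0899). Nampt, the rate-limiting enzyme of the rhythmic NAD salvage pathway, fell in Nox4 KO by 0.45 ± 0.13 (adjusted p = 0.0415), with -0.46 in WT (adjusted p = 0.138). The difference between genotypes was called for none of these 3 genes. Csnk1e passed in WT as well with DESeq2 (adjusted p = 0.0408) and with all 12 libraries in edgeR's fit (adjusted p = 0.0285). Leaving out single libraries lost the pass of Btrc in 5 of 6 cases, of Csnk1e in 5 of 6 and of Nampt in all 6. Btrc also lost it with filterByExpr, with no filter and with the replicate block, Csnk1e with both other normalizations, and Nampt with no filter and with all 12 libraries. Rora, the activator opposed to NR1D1, was at -0.67 in WT (adjusted p = 0.0966) and -0.41 in Nox4 KO (adjusted p = 0.0721). DESeq2 gave Rora an adjusted p of 0.0441 in WT and 0.0414 in Nox4 KO. With the replicate block, Rora passed in both genotypes (edgeR, adjusted p = 0.0105 in WT and 0.0102 in Nox4 KO), Btrc in Nox4 KO (adjusted p = 0.0267) and Nampt in WT (adjusted p = 0.0331). As the WT libraries were not taken as pairs, these passes in WT are a description only. Clock, Arntl2, Nfil3, Csnk1d, Gsk3b, Timeless and Wee1 passed in neither genotype in the main fit, with log2 fold changes between -0.38 for Timeless in WT and 0.25 for Clock in Nox4 KO. In Nox4 KO, Clock passed with the block (edgeR, adjusted p = 0.0402). With single Nox4 KO libraries left out, edgeR's lowest adjusted p there was 0.0482 for Clock and 0.0218 for Nfil3.

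Between genotypes, the question is whether loss of NOX4 shifts the clock genes at rest or after TGF-β2. edgeR called 0 members in control, after TGF-β2 and in the interaction, where 0.0% of all 10767, 10439 and 10890 genes tested were called as well. By the unadjusted p under 0.05, 1 member of 9 passed in each: Nr1d1 in control, where 5.54% of all genes did, Dbp after TGF-β2, where 3.23% did, and Dbp in the interaction, where 2.68% did. DESeq2 called 0 members in the 2 comparisons of genotypes and 1, Dbp, in the interaction. After TGF-β2, Dbp passed DESeq2's adjusted p limit and missed the fold limit, at -0.75. The 9 log2 fold changes against WT were between -0.29 for Arntl and 0.27 for Ciart in control. After TGF-β2 the value of Dbp was -0.75 and the other 8 were between -0.21 for Nr1d1 and 0.11 for Per3. WT and Nox4 KO libraries were apart without overlap for 0 members in control, where 13.6% of all genes were so, and for 2, Dbp and Nr1d1, after TGF-β2, both lower, where 5.92% of all genes were lower in this way. As for TGF-β2, the members were chosen with these values known, and nothing is read from these counts.

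**Figure D4:**
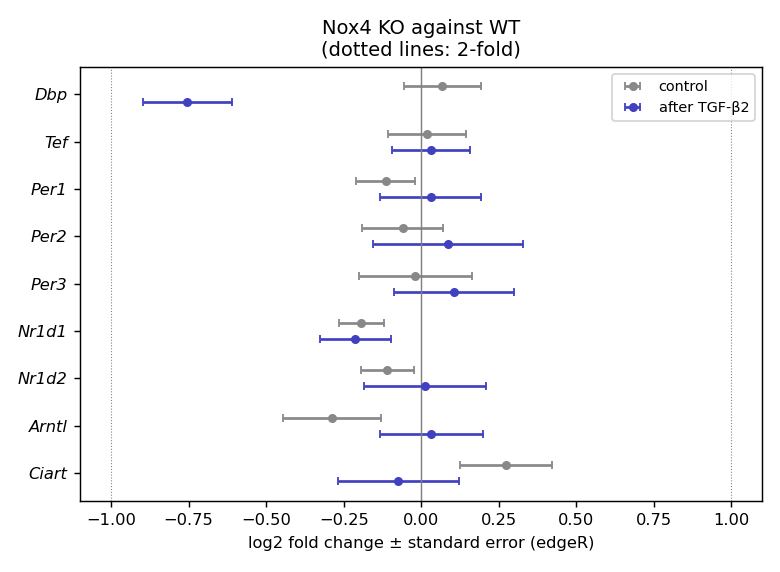
The log2 fold change of Nox4 KO against WT (horizontal axis, dotted lines at a 2-fold change) of the 9 members tested, in control (grey) and after TGF-β2 (blue), with the standard error from edgeR as bars. Dbp is at 0.07 in control and -0.75 after TGF-β2, and the other 8 lie between -0.29 and 0.27.

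Of the other clock genes, 16 were tested between genotypes in control, 17 after TGF-β2 and 17 in the interaction, and edgeR called 0 in each. Without adjustment 1 of them, Rora in control (log2 fold change -0.38, standard error 0.14), had a p under 0.05, and 0 did after TGF-β2 or in the interaction. DESeq2 called 0 of them. The log2 fold change with TGF-β2 in Nox4 KO minus that in WT was 0.17 (standard error 0.34) for Bhlhe40 and -0.10 (standard error 0.22) for Usp2.

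Each library's log2 CPM (reads scaled to library size by TMM) was set against the mean of its group, and the deviations of Dbp over the 12 libraries were compared with those of the 10889 other genes above the RPKM limit. Dbp was highest within its group in the third Nox4 KO libraries, by 0.22 in control and by 0.134 after TGF-β2, and in WT its deviations were at most 0.0616 in size. Arntl deviated by -0.326 and -0.351 in those 2 Nox4 KO libraries. Over the 12 libraries Pearson's r with Dbp was 0.651 for Tef, 0.508 for Per3, 0.361 for Nr1d1, 0.132 for Ciart, 0.0932 for Nr1d2, -0.0263 for Per2, -0.245 for Per1 and -0.866 for Arntl. Of the 17 other clock genes, Btrc at 0.746 was the highest, and the lowest were Usp2 at -0.711, Nfil3, the D-box repressor, at -0.742 and Bhlhe40 at -0.865. Arntl and Bhlhe40 ranked 10790 and 10788 of 10889 from the top. These r are descriptions over points that share library preparation and depth.

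For 5 genes picked after their values were seen, r was smaller in size without the third Nox4 KO libraries, the 2 farthest from the median for Dbp. It was then -0.667 for Arntl, -0.675 for Bhlhe40, -0.552 for Nfil3, 0.364 for Tef and 0.326 for Per3. Within the 6 WT libraries r was -0.384, -0.441, -0.726, 0.255 and 0.156 for these genes in the same order, and within the 6 Nox4 KO libraries it was -0.935, -0.906, -0.784, 0.895 and 0.952. In WT, Dbp had 318 to 426 reads and small deviations, so counting error may be a large part of them. Same-numbered Nox4 KO libraries deviated together, so those 6 are not independent points. The 8 genes most like Dbp were Endod1 (r = 0.969), Aldh3a2, Tpcn1, Hoxb3, Akap5, App, Gpd1l and Mmp16 (r = 0.927), and the 8 most unlike it were Slc25a44 (r = -0.959), Meox1, Adgrd1, Ctdp1, Acvr1, Nedd4l, Stac2 and Ccdc22 (r = -0.942). None of these 16 is on the list of clock genes. The macrophage markers summed to 18.9 and 12.4 RPKM in the third Nox4 KO control and stimulated libraries, the lowest of their groups, and 108 and 73.7 RPKM in the third WT libraries, the highest of theirs. Their part in the pattern was not tested.

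**Figure D5:**
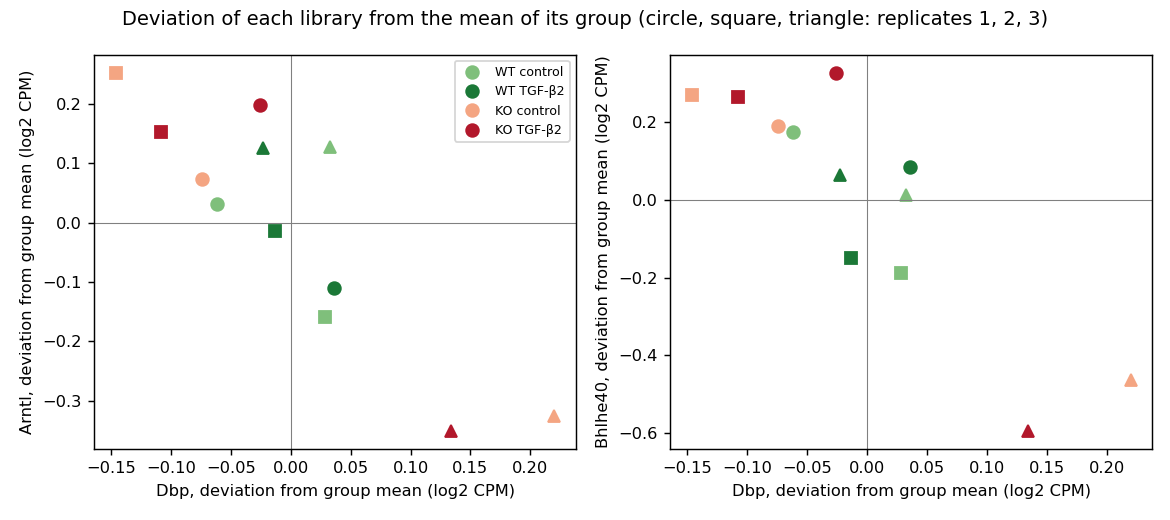
The deviation of each library from the mean of its group in log2 CPM, Dbp on the horizontal axis against Arntl (left) and Bhlhe40 (right) on the vertical axis, colored by group and with replicates 1, 2 and 3 as circles, squares and triangles. The third Nox4 KO control library lies farthest to the right at 0.22 for Dbp with -0.326 for Arntl, followed by the third stimulated Nox4 KO library at 0.134 with -0.351.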

How the data were processed

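RNA from 12 libraries of primary mouse skin fibroblasts, 3 each of WT and Nox4 KO with and without TGF-β2, was analysed, with groups and replicate numbers taken from the sample labels. Single-end reads were aligned to GRCm38 by the authors using STAR 2.4, keeping those with 1 location in the genome. With featureCounts 1.4.6 each kept read was assigned to the union of a gene's protein-coding exons, and the authors deposited these raw counts, not normalized. Versions are those of the submitters' processing notes. Library totals were between 35118344 and 43796260, and counting error is part of the spread between libraries. All columns of the table were assigned to a sample. All 21556 genes were matched by Ensembl identifier to GENCODE M21, which gave symbols, positions and exon lengths. Counts were divided by exon length and library total to give RPKM.

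A gene was tested where any group in the fit had a mean of 1 RPKM or more, with edgeR 4.0.16 (quasi-likelihood test, TMM normalization, Benjamini-Hochberg adjustment over all genes tested, R 4.3.3). Each comparison was fitted on its own 6 libraries and the interaction of genotype and TGF-β2 over all 12. Calls need an adjusted p below 0.05 together with a 2-fold or larger change, or any size for the interaction. Standard errors were derived from the F statistic. The 10 members and the list of 20 other clock genes were chosen with earlier results of these data known, and some genes first put on that list are not reported here, whatever their values. Named were all genes of both lists, Nox4, genes that overlap a member, and the 8 genes with the highest and the 8 with the lowest r with Dbp over the deviations of log2 CPM (prior count 0.5) from the group means.

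Replicate numbers in the labels are shared between groups. Same-numbered Nox4 KO libraries deviated together from their group means over 10890 genes (r = 0.775, 0.683 and 0.748), so the numbers pair these samples by this check, since no label states it. In WT r was 0.0749, 0.435 and 0.531, and those libraries were not taken as pairs. The main fits do not use the pairs, which enter only with the replicate block. The chi-square per gene between replicates was 14.4 to 147, more than sampling noise gives. The alternatives were DESeq2 1.42.0, upper-quartile and library-size normalization, filterByExpr, no filter, all 12 libraries in the fit, the replicate block, no fold limit, and each library left out in turn. The procedures were tested on simulated counts. Promoter windows came from RefSeq, and motifs were exact matches on both strands.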

Additional observations from a re-analysis of the deposited data

How the results depend on the processing

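Over the alternatives, 618 of 630 values for single members and 1150 of 1177 for the other clock genes kept their side of the threshold and their size within the error. No called value changed its sign, and 58 member values that were not called did, up to 0.148 in size as reported. In WT with TGF-β2, the members called went from 0 to 1 without the fold limit (Per1), to 1 with filterByExpr and to 1 with no filter (Hlf in both, whose reads reach the former through its control libraries alone), and the genes called in all went from 829 to 2425 without the fold limit and to 1259 with no filter. In Nox4 KO with TGF-β2, the members called went from 1 to 3 without the fold limit (Dbp, Per1 and Per2) and to 0 with all 12 libraries in the fit, and ranged from 0 to 1 with each library left out. The count of 0 came without the third control or the second stimulated Nox4 KO library. The other clock genes called there went from 2 to 7, and all genes from 735 to 3243 without the fold limit and to between 442 and 892 with each library left out, where the second stimulated Nox4 KO library gave the lowest. The log2 fold change of Dbp there was -0.99 with filterByExpr, -0.99 with no filter and -0.98 with all 12 libraries, just short of 2-fold, and the member then called with filterByExpr and with no filter was Hlf. Over the alternatives that kept all libraries it ranged from -1.10, with library-size normalization, to -0.98. In WT, Noct lost its 2-fold call without the third control, the first stimulated or the third stimulated library and with library-size normalization, with values down to 0.93, and Usp2 without the first control or the second stimulated library and with no filter, with values up to -0.93. In Nox4 KO, Noct was called without the second control library, at 1.07. Between genotypes, all genes called went from 0 to 6 with DESeq2 in control, to 6 after TGF-β2 and to 6 in the interaction, to 1 with all 12 libraries in control, and to between 0 and 1 with each library left out, in control and after TGF-β2. The 1 member called in the interaction by DESeq2 was Dbp. With the replicate block, 0 members were called in WT and 1 in Nox4 KO, 4 and 3 other clock genes, and 925 and 904 of all genes. Of the genes of both lists, the block changed the 2-fold call of Bhlhe41 in Nox4 KO. At any fold, Btrc in WT did not pass with the block, whereas Per3, Arntl, Clock, Rora, Bhlhe41 and Btrc in Nox4 KO and Per3, Rora and Nampt in WT passed with it and not without. The WT numbers were not taken as pairs, so the changes with the block in WT are a description only. Of the other normalizations, the one that moved the median of all genes most moved it by -0.0872 on the log2 scale. Ciart, Hlf and Dbp had the fewest reads among the members, and depth limits them most.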
